A study of Mus musculus with 6 samples.

Results

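The genes described are the ephrin and venous identity genes of lung endothelial cells (ECs): the ephrin ligands Efnb2, Efnb1 and Efna1, the Eph receptors Ephb4 and Epha4, the nuclear receptors Nr2f2 and Nr2f1, and the growth factor Nrg1. They are 8 of the 31053 features counted in each of 6 single-cell RNA-seq libraries of mouse lung. They were taken from a list of names and not by a rule on their values, but earlier results of these data were known. They were measured in 31983 ECs of the 58883 cells kept. An EC was a cell with at least 2 unique molecular identifiers (UMIs) of Pecam1 and Cdh5 together, the genes of the junction proteins CD31 and VE-cadherin.

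Ephrins are ligands bound to the cell surface, and Eph receptors are receptor tyrosine kinases that bind them when cells touch. In developing vessels Efnb2 is a classical marker of arterial ECs and its receptor Ephb4 of venous ECs, and signalling between them helps to keep arteries and veins apart. Nr2f2, also called COUP-TFII, is a transcription factor that maintains venous identity by restraining Notch signalling, and it is also needed for lymphatic ECs and is abundant in mesenchyme. Nr2f1 is its close relative. Nrg1 encodes neuregulin, which binds ErbB receptors, and the study used it as a marker of veins in tissue sections.

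Every mouse carried DsRed knocked into the Cxcl12 locus, where the reporter replaces 1 or both copies of this arterial chemokine gene. The 4 sorted libraries came from Cxcl12DsRed/+ lungs of 3 embryonic ages, E13.5, E15.5 and E18.5 in days, and of postnatal day 8 (P8). Several lungs were pooled at each age, and reporter-positive CD31+ EpCAM- CD45- cells were sorted. The study also collected reporter-positive CD31- cells, enriched for mesenchyme. The label protocol names the reporter as TdTomato. The other 2 libraries were whole E18.5 lungs labelled control (Cxcl12DsRed/+) and null (Cxcl12DsRed/DsRed), and no lung with both Cxcl12 copies intact was included. Because the sort kept reporter-positive cells, the sorted ECs do not sample all lung ECs, and veins enter them only as far as their cells carried the reporter. At the embryonic stages it imaged, the study saw no DsRed in venous endothelium, and it described the sorted endothelium as lacking venous identity. In other published data it saw Cxcl12 in a small number of venous ECs after birth. Levels of venous genes in sorted ECs are therefore not levels of veins. There was 1 library per condition, so no test over samples was possible, and all intervals are exact 95% intervals that cover counting error only. Where 4 values are given in order of age, they are those of the sorted ECs of E13.5, of E15.5, of E18.5 and then of P8.

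Libraries held 63746333 to 117522172 UMIs in 8845 to 13098 barcodes, with 16 to 50 barcodes shared by each pair. ECs numbered 210, 9453, 9119 and 8259 in order of age, 3019 in the library labelled null and 1923 in the library labelled control, at a median of 5667 to 8946 UMIs per EC. They were 1.65%, 81.1%, 95.6% and 97.7% of the cells kept in the sorted libraries in order of age. The endothelial markers summed to 4927 to 11859 UMIs per 1000000 UMIs (CPM) in ECs, and the mesenchymal markers to 870, 397, 152 and 24.6 CPM in order of age, to 706 in the library labelled null and 498 in the library labelled control. Cxcl12 went against the whole-lung labels: its level in ECs was 496 CPM in the library labelled null and 4.23 CPM in the library labelled control, against 720 to 1210 CPM in the sorted libraries, and the deposited file names give the opposite genotypes. Both whole lungs are therefore called by their labels only. Xist, transcribed from the inactive X chromosome, stood at 0.15 CPM in ECs of the library labelled control and at 242 to 942 CPM in the other 5.

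Efnb2, Efnb1 and Epha4 were the 3 members whose level in sorted ECs was higher at each later age from E15.5 to P8, beyond the counting intervals, and their upstream sequences are shown for that reason. The windows are the 250 bases before the RefSeq gene start on the gene's own strand, in GRCm38.p6, at chr8:8661243-8661492 (minus strand) for Efnb2, chrX:99135811-99136060 (plus strand) for Efnb1 and chr1:77515089-77515338 (minus strand) for Epha4. Capitals mark TGGGAA, the core letters bound by RBPJ, the DNA-binding partner of Notch, which was searched for on both strands.
Efnb2: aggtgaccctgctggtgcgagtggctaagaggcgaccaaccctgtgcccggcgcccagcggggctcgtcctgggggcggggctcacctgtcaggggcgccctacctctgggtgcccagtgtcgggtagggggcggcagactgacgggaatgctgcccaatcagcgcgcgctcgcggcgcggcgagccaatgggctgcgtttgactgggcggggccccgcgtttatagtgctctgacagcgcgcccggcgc
Efnb1: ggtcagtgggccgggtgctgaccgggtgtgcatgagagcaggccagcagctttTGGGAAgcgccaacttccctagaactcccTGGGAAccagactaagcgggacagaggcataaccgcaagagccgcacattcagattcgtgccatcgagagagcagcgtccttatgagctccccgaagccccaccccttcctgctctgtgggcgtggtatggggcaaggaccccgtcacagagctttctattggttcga
Epha4: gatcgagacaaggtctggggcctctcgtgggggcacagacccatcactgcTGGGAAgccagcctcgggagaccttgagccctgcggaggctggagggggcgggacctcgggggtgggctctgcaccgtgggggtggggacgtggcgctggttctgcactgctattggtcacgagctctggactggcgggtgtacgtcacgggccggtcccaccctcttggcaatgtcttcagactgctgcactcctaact
The Efnb1 window held the letters at 2 places, 197 and 168 bases before the start, the Epha4 window at 1 place, 200 bases before it, and the Efnb2 window at 0 places. The windows of Efna1, Ephb4, Nr2f1 and Nr2f2, not shown, held the letters at 0 places as well. Of all 32851 windows of this length, 21.6% held TGGGAA on either strand and 2.77% held it at 2 or more places. G and C made up 72% of the Efnb2 window, 66% of the Epha4 window and 60% of the Efnb1 window, against a median of 52.4% over all windows. A match of letters is a description of the window and not a binding site.

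Among the ligands, Efnb2 (ENSMUSG00000001300, chr8:8617434-8661242, GRCm38) took the largest share of UMIs of the 8 members in the ECs of all 6 libraries, with overlapping intervals between it and Efna1 at E13.5. Its level in sorted ECs was, in order of age, 164 CPM (146 to 184), 167 (165 to 170), 337 (333 to 342) and 532 (526 to 538). It was level between the first 2 ages and then higher at each age, by 2.02-fold from E15.5 to E18.5 and by 1.58-fold from E18.5 to P8. After each EC was thinned to 2000 UMIs, so that depth was equal, the share of ECs with an Efnb2 UMI was 25.5%, 28.9%, 46.7% and 61.5% in order of age, and without thinning it was 66.7%, 68.3%, 76.4% and 89.6%. Thinning left out the ECs under 2000 UMIs, 2, 20, 141 and 197 cells in the order of age and 20 and 4 in the libraries labelled null and control.

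Efnb1 (ENSMUSG00000031217, chrX:99136130-99148991), the second transmembrane ephrin-B ligand here, stood at 21.6 CPM (15.4 to 29.6), 17.9 (17.1 to 18.8), 66.7 (64.7 to 68.8) and 148 (145 to 151) in order of age. The level was 3.65-fold higher at E18.5 than at E15.5 and another 2.21-fold higher at P8. The thinned share of ECs with an Efnb1 UMI was 3.85%, 3.16%, 12.5% and 24.9% in the same order. Efnb1 is X-linked, and the libraries differed in the sex of the pooled lungs as read from Xist and from the Y-linked Ddx3y, which stood at 39.4, 14.7, 54.1 and 0 CPM in sorted ECs from E13.5 to P8. The part of sex in the Efnb1 levels was not tested.

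Efna1 (ENSMUSG00000027954, chr3:89271733-89281142), a ligand held to the membrane by a lipid anchor, did not climb in this way. In order of age it stood at 139 CPM (122 to 157), 108 (105 to 110), 194 (191 to 198) and 144 (141 to 147), so that E13.5 and P8 overlapped in their intervals and E18.5 was highest.

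**Figure D1:**
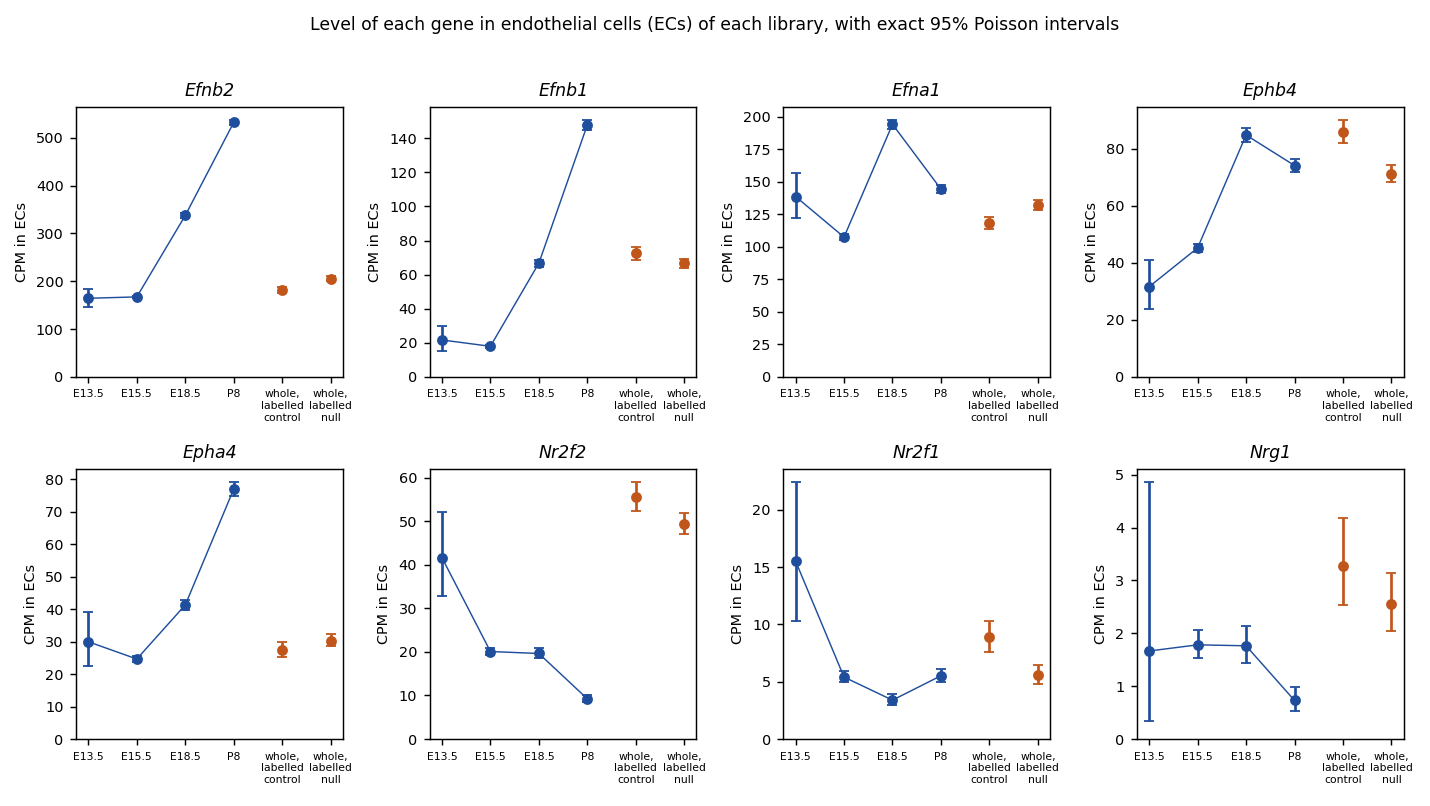
Level of each member in ECs in CPM (vertical axes, from 0) by library, with exact 95% Poisson intervals as bars. Blue points are the 4 sorted libraries by age and orange points both whole E18.5 lungs; Efnb2, Efnb1 and Epha4 end highest at P8, at 532, 148 and 77.0 CPM, and Nr2f2 lowest, at 9.22 CPM.

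Of the receptors, Ephb4 (ENSMUSG00000029710, chr5:137350109-137378669), the venous partner of Efnb2, was present in the ECs at every age. Its level in order of age was 31.6 CPM (24.0 to 41.0), 45.3 (43.9 to 46.6), 84.9 (82.6 to 87.2) and 74.2 (72.0 to 76.3). It was higher at E18.5 than at E15.5, as Efnb2 was, and lower at P8, where Efnb2 was higher again. Epha4 (ENSMUSG00000026235, chr1:77367185-77515088), a receptor that can bind ligands of both ephrin classes, followed Efnb2 more closely, at 30.0 CPM (22.5 to 39.1), 24.7 (23.7 to 25.7), 41.3 (39.7 to 43.0) and 77.0 (74.8 to 79.2). The thinned share of ECs with a UMI was 4.81%, 8.90%, 15.6% and 13.8% for Ephb4, and 7.21%, 5.22%, 8.28% and 14.0% for Epha4.

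The venous transcription factor Nr2f2 (ENSMUSG00000030551, chr7:70351944-70366735) ended lower at P8 than at any earlier age. Its level was 41.6 CPM (32.7 to 52.2), 20.1 (19.2 to 21.0), 19.6 (18.5 to 20.8) and 9.22 (8.48 to 10.0) in order of age, level between E15.5 and E18.5. Nr2f2 was found in few ECs: the thinned share was 3.37% (1.36 to 6.81), 3.06% (2.73 to 3.43), 2.66% (2.34 to 3.02) and 1.43% (1.18 to 1.71) in that order. The E13.5 level moved with mesenchymal transcripts. Without the 25 of 210 ECs that held at least 2 UMIs of other-class markers it was 21.9 CPM, beside 18.8 at E15.5 in the same selection, and the cells outside the EC gate of that library stood at 127 CPM.

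Nr2f1 (ENSMUSG00000069171, chr13:78188973-78199757) was at 15.5 CPM (10.3 to 22.5), 5.41, 3.39 and 5.52 from E13.5 to P8, and its E13.5 level was 8.48 CPM without the ECs that held other-class markers. Nrg1 (ENSMUSG00000062991, chr8:31814551-32884029) was close to the limit of detection over all ECs, at 1.66, 1.78, 1.76 and 0.729 CPM from E13.5 to P8, and 0 of 208 thinned ECs at E13.5 held a UMI, which allows a share of up to 1.44% by a limit of 3 counts and 1.76% by the exact interval. Without thinning the E13.5 share was 1.43% (0.296 to 4.12). Of the ErbB receptor genes Egfr, Erbb2, Erbb3 and Erbb4, only Erbb2 reached 10 CPM in ECs, at 22.2, 10.4, 12.0 and 7.65 CPM in the order of age.

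Set against all genes, a gene was counted as changed between neighbouring ages when its log2 ratio of CPM + 0.5 was at least 1 in size and it reached 10 CPM in either library. From E13.5 to E15.5, 0 of the 7 members above this minimum rose, where 2.6% of 8396 genes did, and 2 fell, Nr2f2 (log2 ratio -1.03) and Nr2f1 (-1.44), where 4.55% of genes did. From E15.5 to E18.5, 2 of 6 rose, Efnb1 (1.87) and Efnb2 (1.01), and 0 fell, where 8.93% of 8508 genes rose and 4.8% fell. From E18.5 to P8, Efnb1 rose (1.14) and Nr2f2 fell (-1.05) of 6, where 4.17% of 8466 genes rose and 4.31% fell. The median log2 ratio of the members above the minimum was -0.28, 0.88 and 0.23 in the 3 comparisons, beside -0.09, 0.18 and 0.04 over all genes. Efnb1 was past the threshold in all 9 settings in which each of its ratios was computed, whereas Efnb2 from E15.5 to E18.5 lay at 0.88 to 1.02 and Nr2f2 from E13.5 to E15.5 at -1.05 to -0.21, and each was past the threshold in 5 and 4 of 9. Nr2f1 from E13.5 to E15.5 lay at -1.59 to -0.47 and Nr2f2 from E18.5 to P8 at -1.15 to -0.79, both past it in 6 of 9.

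The other genes of arterial and venous identity were taken as 2 lists. The venous list held Aplnr, Nrp2, Flt4, Emcn, Ackr3, Vwf, Slc6a2, Car8, Prss23, Amigo2, Selp and Vcam1. In the study Flt4 marked lymphatic ECs, EMCN marked capillaries and veins, and VWF marked macrovessels. The list is therefore not particular to veins. Of 18 arterial genes, 0 rose and 1 fell from E13.5 to E15.5 (Gja5, a gap junction gene of arteries, -1.97). Then 6 rose from E15.5 to E18.5, among them Acvrl1 (1.70), the Notch target Hey1 (1.39), the Notch ligand Dll4 (1.37) and Gja5 (1.19). The 1 that fell from E15.5 to E18.5 was Hey2 (-1.17). Over all genes, 2.6% rose and 4.55% fell at the first of these steps, and 8.93% rose and 4.8% fell at the second. From E18.5 to P8, 1 of 17 rose (Cxcr4, 1.10) and 3 fell (Jag1 at -1.65, Gja5 at -1.38 and Mecom at -1.15), while Efnb2 was higher. Of the 9 venous genes past the minimum, 3 rose and 1 fell at the first step and 3 rose and 1 fell at the second. Of 8 at the last step, 1 rose (Ackr3, 1.10) and 2 fell (Nrp2 at -2.14 and Prss23 at -1.02), where 4.17% of all genes rose and 4.31% fell. The median log2 ratio over the 3 steps was -0.37, 0.47 and -0.41 for the arterial list and 0.03, 0.56 and -0.72 for the venous list, beside -0.09, 0.18 and 0.04 for all genes. Of the 17 other Eph and ephrin genes, 5, 4 and 2 passed the minimum, and the changes were Epha7 from E13.5 to E15.5 (-2.08) and Efna5 from E15.5 to E18.5 (-1.09), both lower. Efna4 stood at 34.4, 22.8, 13.4 and 9.88 CPM and Epha2 at 10.5, 14.8, 17.4 and 27.2 CPM in sorted ECs from E13.5 to P8, and Ephb1 at 12.2, 10.2, 6.70 and 4.33.

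Within the endothelium, Efnb2 was graded and not confined to arteries. ECs of each library were clustered without the 8 genes and named "-like" from marker lists: maEC1 (proximal arterial), maEC2 (distal arterial), general capillary (gCap), aerocyte capillary (aCap), systemic-type capillary, tip, proliferating and lymphatic. At E18.5 the Efnb2 level was 536 CPM in maEC2-like cells, 318 in gCap-like, 292 in maEC1-like, 252 in systemic-type capillary-like, 186 in proliferating-like, 185 in aCap-like and 151 in lymphatic EC-like cells. At P8 it was 798 in maEC1-like and 783 in maEC2-like cells, 539 in gCap-like, 341 in proliferating-like and 316 in aCap-like cells. At E15.5 it was 291 in maEC1-like, 256 in maEC2-like, 173 in systemic-type capillary-like and 118 in proliferating-like cells. An arterial population had the highest Efnb2 level in 5 of 5 libraries with more than 1 named population, whole lungs included, and the P8 gCap-like level stood above the E18.5 level of maEC1-like cells and near that of maEC2-like cells.

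Efnb1 and Efna1 separated the arterial populations from each other. In maEC1-like cells Efnb1 stood at 4.66 CPM (3.29 to 6.39) at E15.5 and 7.73 (4.32 to 12.7) at E18.5, when maEC2-like cells stood at 63.5, gCap-like at 86.4 and aCap-like at 89.1. At P8 maEC1-like cells had reached 87.0 CPM, still below the 141 of maEC2-like and the 169 of gCap-like cells. Efna1 at E18.5 was 346 CPM in maEC2-like cells against 64.4 in maEC1-like and 64.5 in lymphatic EC-like cells, and at P8 both arterial levels were close, at 241 and 218 CPM. The maEC1-like cells of the library labelled control were also lowest in Efnb1 there, at 29.6 CPM (20.4 to 41.6) against 62.1 to 117 in the other named populations, but not in Efna1, which stood at 166 (143 to 192), below maEC2-like cells at 253 and above aCap-like cells at 121.

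Ephb4 did not follow the order of its ligand over the populations. At E15.5 its named populations spanned 39.7 to 59.2 CPM and at P8 58.5 to 81.1. At E18.5 they spanned 48.9 to 93.1, apart from lymphatic EC-like cells at 167 CPM (145 to 193), and maEC2-like cells, the highest in Efnb2, stood at 93.1 CPM, within counting error of gCap-like cells at 89.1. Epha4 was higher in arterial than in other named populations at E15.5 and E18.5, at 43.1 CPM in maEC1-like and 36.6 in maEC2-like cells against 17.1 in systemic-type capillary-like cells at E15.5, and at 61.8 and 63.5 against 35.1 in aCap-like, 28.5 in gCap-like and 4.36 (1.42 to 10.2) in lymphatic EC-like cells at E18.5. At E13.5 the maEC1-like cells stood at 20.5 (8.85 to 40.4) and the unnamed ECs at 32.6 (23.9 to 43.5). At P8 the named populations spanned 60.9 to 86.4 CPM and gCap-like cells were highest.

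**Figure D2:**
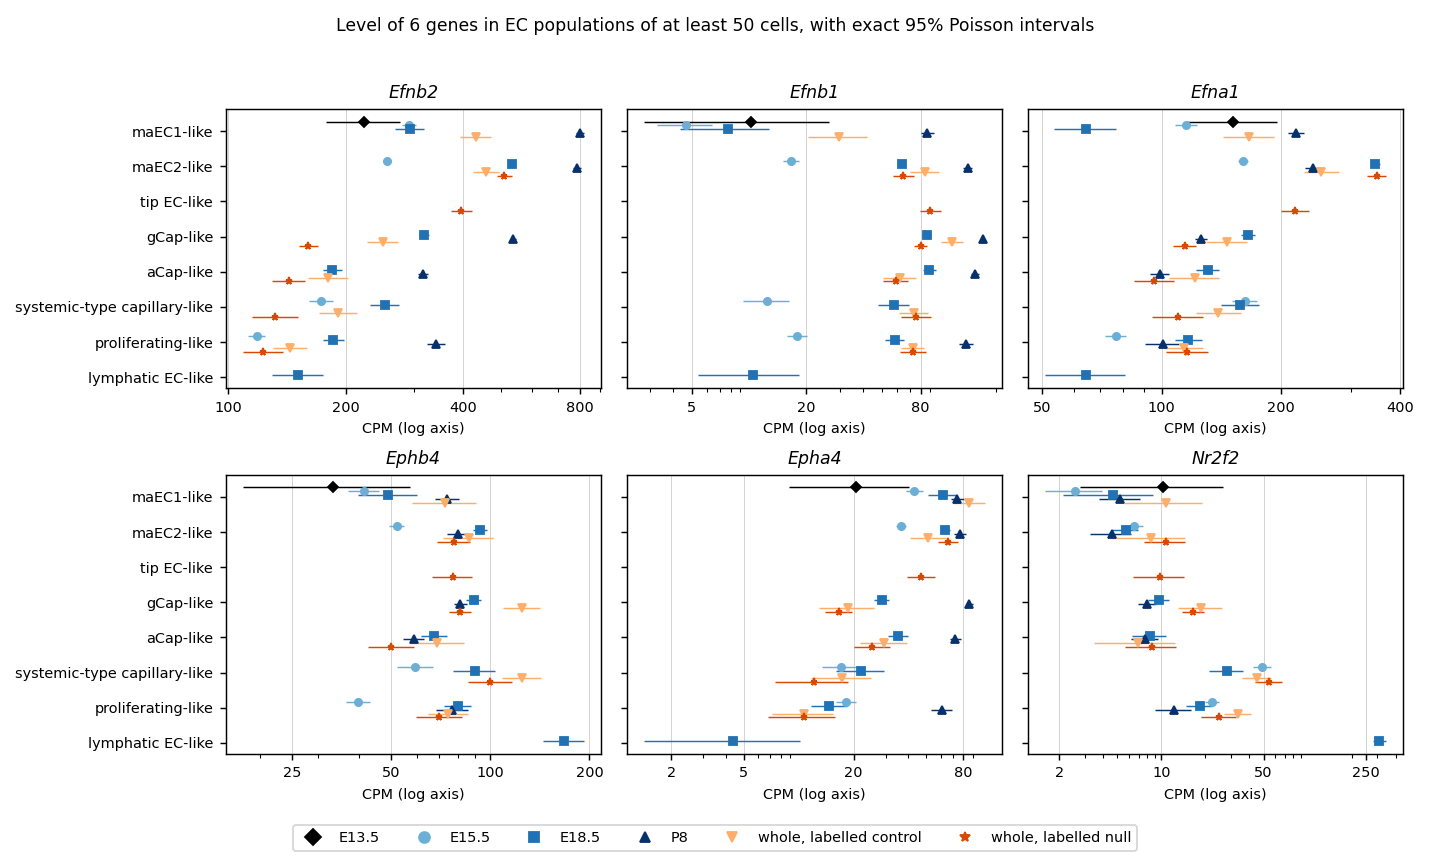
Level in CPM (log axis) of 6 members in the named EC populations of each library, with exact 95% Poisson intervals as bars. Efnb2 is highest in arterial populations, at E18.5 both Ephb4 (167 CPM) and Nr2f2 (310 CPM) are highest in lymphatic EC-like cells.

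Among the named populations, Nr2f2 was lowest in an arterial population in the sorted libraries from E15.5 on, and in aCap-like cells in both whole lungs. The maEC1-like and aCap-like intervals overlapped at E18.5, at 2.12 to 8.80 and 6.27 to 10.8. At E18.5 Nr2f2 was 310 CPM (278 to 343) in the 113 lymphatic EC-like cells, 27.9 in systemic-type capillary-like, 18.2 in proliferating-like, 9.60 in gCap-like, 8.30 in aCap-like, 5.70 in maEC2-like and 4.64 in maEC1-like cells. At E15.5 it was 48.8 (42.4 to 55.9) in systemic-type capillary-like cells, 22.3 in proliferating-like, 6.46 in maEC2-like and 2.57 (1.59 to 3.93) in maEC1-like cells. Nr2f1 was highest in lymphatic EC-like cells at E18.5 as well, at 25.3 CPM (16.9 to 36.3), and 0 of its UMIs fell in maEC1-like cells there. No cluster met the venous markers at any of the 3 clustering resolutions, so a venous level proper could not be given. Of the named populations, systemic-type capillary-like cells had the highest levels of both Nr2f2 and Ephb4 at E15.5 (48.8 and 59.2 CPM) and in the library labelled null (54.6 for Nr2f2, with the Ephb4 interval at 85.4 to 117), as lymphatic EC-like cells did at E18.5. The systemic-type lead in Ephb4 was within counting error. At E15.5 its interval of 52.1 to 66.9 overlapped that of maEC2-like cells, at 49.3 to 54.8. In the library labelled null the gCap-like interval was 74.7 to 87.4. In the library labelled control gCap-like and systemic-type capillary-like cells both stood at 125 CPM for Ephb4. Nr2f2 and Ephb4 were also both high in single clusters without a name. Over all ECs without a name, Ephb4 stood at 41.7 CPM at E15.5 and 76.3 at E18.5, within the range of the named populations. An unnamed cluster of 69 ECs at E18.5, led by Ehd3, Rspo3, Apoe and Stab2, stood at 270 CPM for Nr2f2 (234 to 309), 176 for Ephb4 (147 to 208) and 67.7 for Nrg1 (50.6 to 88.8), with Efnb2 at 112 (89.6 to 138) and 5.80% of cells called doublets. An unnamed cluster of 107 ECs at E15.5, led by Apoe, Myl2, Tmem108 and Actc1, stood at 119, 82.5 and 39.1 CPM for the same genes, and its mesenchymal markers summed to 614 CPM against 397 over all ECs of that age. Among the named populations of the sorted libraries, the highest Nrg1 level was 13.4 CPM (8.75 to 19.6), in maEC1-like cells at E18.5.

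After thinning, the share of ECs with both Efnb2 and Ephb4 was close to the product of their separate shares. Both were found in 2.61% of ECs at E15.5 (product of the shares 2.57%), 7.47% at E18.5 (7.29%) and 8.89% at P8 (8.52%). The share of ECs with Ephb4 was 9.03% with and 8.86% without Efnb2 at E15.5, 16.0% and 15.3% at E18.5, and 14.4% and 12.9% at P8. It was 13.1% and 13.6% in the library labelled null and 17.8% and 16.2% in the library labelled control. The intervals overlapped in each of these 5 libraries, and at E13.5 1 of 208 cells held both. At the unequal depths of the unthinned cells, the shares of Ephb4 with and without Efnb2 were 36.7% and 30.0% at E15.5, 40.9% and 34.5% at E18.5, 40.3% and 26.0% at P8 and 50.2% and 44.1% in the library labelled null, with separate intervals, and 52.4% and 51.9% in the library labelled control. At E13.5 both genes were in 40 of the 210 unthinned ECs, and Ephb4 was in 28.6% (21.3 to 36.8) with and 15.7% (8.11 to 26.4) without Efnb2, with overlapping intervals. In monocyte-like cells of the whole lungs, which should lack both genes, Ephb4 was in 0 of 491 thinned cells, which allows up to 0.611% by the limit of 3 counts and 0.748% by the exact interval, and in 1 of 489, and Efnb2 in 5 and 1, at median depths of 14713 and 15150 UMIs against 8946 and 8145 in ECs.

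The share of ECs with both Efnb2 and Nr2f2 was below the product of their separate shares in each of the 6 libraries, beyond the counting interval at E15.5, at E18.5 and in the library labelled control. Both were found in 0 of 208 thinned ECs at E13.5, which allows up to 1.44% by the limit of 3 counts and 1.76% by the exact interval, but 6 of the 7 E13.5 ECs with Nr2f2 held other-class markers (85.7%, against 9.45% of those without it). Both were found in 0.488% (0.357 to 0.650) at E15.5 against a product of 0.885%, in 0.891% (0.707 to 1.11) at E18.5 against 1.24% and in 0.695% (0.525 to 0.901) at P8 against 0.878%. Nr2f2 was found in 1.69% (1.24 to 2.25) of E15.5 ECs with Efnb2 and 3.62% (3.19 to 4.10) of those without, and in 1.91% (1.52 to 2.37) and 3.32% (2.83 to 3.87) at E18.5. At P8 the shares were 1.13% (0.854 to 1.46) and 1.90% (1.45 to 2.45), whose intervals just overlapped, and without thinning the order at P8 was 4.62% and 4.44%. In the library labelled control the shares were 4.22% and 9.04%, and in the library labelled null 5.25% and 6.35%, with overlapping intervals. Without thinning, Nr2f2 at E13.5 was in 16.4% of ECs with Efnb2 and 17.1% of those without, and both genes were together in 10.95%, at a product of 11.1%. Monocyte-like cells of the whole lungs held Nr2f2 in 2.65% and 2.25% of thinned cells, and the lowest whole-lung EC populations lay below that, with aCap-like cells at 0.685% and 0.575%.

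**Figure D3:**
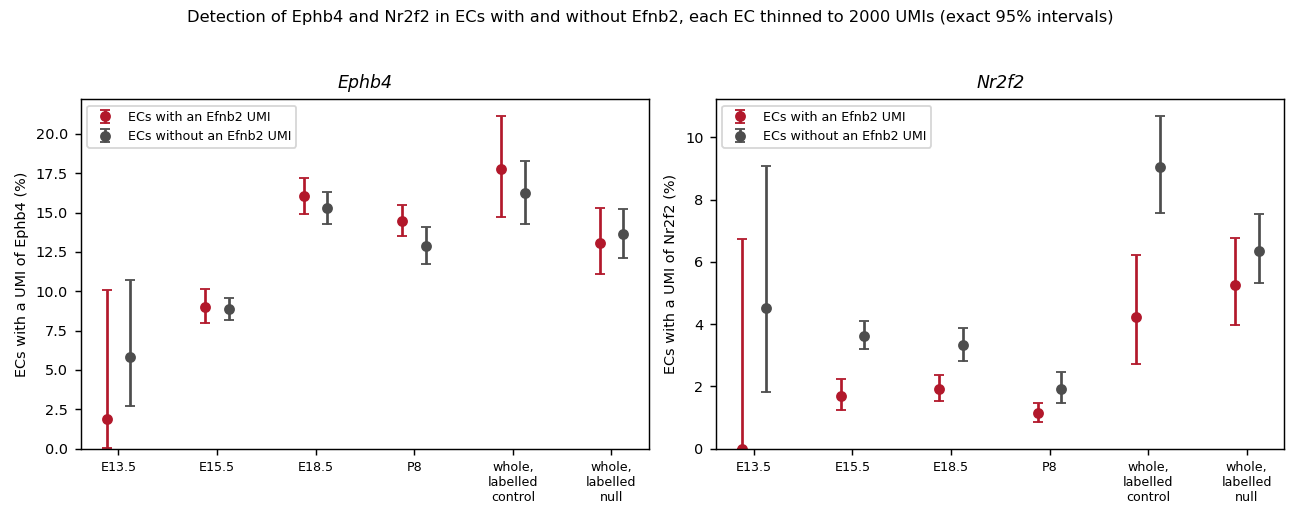
Share of thinned ECs with a UMI of Ephb4 and of Nr2f2 (percent) among ECs with and without an Efnb2 UMI, by library, with exact Clopper-Pearson intervals as bars. The Ephb4 shares lie close together, while Nr2f2 is lower in ECs with Efnb2 in all 6 libraries, for example 1.91% against 3.32% at E18.5.

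At E15.5 and E18.5 the share of ECs with both Ephb4 and Nr2f2 was above the product of their shares, beyond the counting interval. Both were found in 0.498% of ECs (0.366 to 0.662) against a product of 0.273% at E15.5, and in 0.568% (0.423 to 0.746) against 0.416% at E18.5. Without lymphatic EC-like cells, which held 20 of the 51 cells with both genes at E18.5, the share there was 0.350% (0.238 to 0.496) and the interval held the product of 0.314%, while at E15.5 it was 0.394% (0.278 to 0.543) against 0.252%. At E15.5, over all ECs, Nr2f2 was in 5.60% (4.14 to 7.37) of ECs with Ephb4 and 2.82% (2.48 to 3.19) of those without. At E18.5 these shares were 3.64% (2.72 to 4.75) and 2.48% (2.14 to 2.86), and at P8 1.79% and 1.37%, with overlapping intervals. In the whole lungs they were 6.45% and 5.89% (labelled null) and 10.0% and 7.13% (labelled control), also overlapping. Without thinning they were 17.0% and 11.8% at E15.5, 8.99% and 4.69% at E18.5 and 6.55% and 3.37% at P8. Those of the libraries labelled null and control were 25.4% and 14.8%, and 28.2% and 16.4%. All these unthinned pairs had separate intervals, while those at E13.5, 21.6% and 15.1%, overlapped. All 3 genes were found in 0, 8, 17 and 6 thinned sorted ECs in the order of age. Lymphatic EC-like cells were part of these counts: of the 239 thinned E18.5 ECs with Nr2f2, 58 were lymphatic EC-like, and among the 113 lymphatic EC-like cells Nr2f2 was found in 51.3%, Ephb4 in 33.6% and Efnb2 in 25.7%. With called doublets left out, the level in lymphatic EC-like cells went from 151 to 130 CPM for Efnb2 and from 310 to 364 CPM for Nr2f2. The background of free RNA was not measured in the sorted libraries. Among named populations, the lowest Nr2f2 shares at E15.5 and E18.5 were those of maEC1-like cells, at 0.274% (0.0565 to 0.798) and 0.435% (0.0110 to 2.40). At P8 the lowest was that of aCap-like cells, at 0.865% (0.396 to 1.64). The only named population of E13.5, maEC1-like, held Nr2f2 in 0 of 58 cells (0 to 6.16%). Within lymphatic EC-like cells Efnb2 and Nr2f2 were together in 13.3%, at a product of 13.2%. Within the other populations the split of Nr2f2 by Efnb2 went both ways. Of 27 such named populations, the share with Nr2f2 was lower among cells with Efnb2 in 18 and higher in 9. The intervals were apart in 1, the systemic-type capillary-like cells of E15.5, at 1.52% (0.184 to 5.37) and 8.64% (5.82 to 12.2). Among the 1302 ECs of E18.5 in clusters without a name, which held 52 of the ECs with Nr2f2, the shares were 1.67% (0.766 to 3.15) with and 5.64% (4.11 to 7.52) without Efnb2, with separate intervals. The intervals overlapped among the ECs without a name of each other library, where the share with Efnb2 was again the lower. In maEC2-like cells at E18.5 it was 1.44% with and 0.864% without Efnb2, in maEC1-like cells at P8 1.15% and 0.386%, and in tip EC-like cells of the library labelled null 3.72% and 0.621%, all with overlapping intervals.

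ECs in which only Nr2f2 was found also differed in other genes from ECs in which only Efnb2 was found. Efnb2 is itself an arterial marker and Nr2f2 a venous one, so the way the groups were picked favours such a difference. What Nr2f2 adds to the absence of Efnb2 was not tested. The split also depends on depth: without thinning, 66.7% of E18.5 ECs with Nr2f2 also held Efnb2. Genes were counted here if they reached 10 CPM over all thinned ECs of the library, a minimum that does not depend on either group. At E18.5 there were 159 and 4109 such ECs, and 13 of 17 arterial genes were lower by at least 2-fold in the Nr2f2-only ECs, where 9.02% of all genes were, and 5 of 8 venous genes were higher, where 3.91% of genes were. The median log2 ratio was -1.65 for the arterial and 2.23 for the venous list, beside -0.08 over all genes. At E15.5 (243 and 2679 ECs) 16 of 18 arterial genes were lower, against 8.33% of all genes, and 5 of 9 venous genes were higher and 2 lower, against 3.01% higher. At P8, with 59 and 4906 ECs, where 1 UMI in the smaller group is 8.47 CPM, 11 of 17 were lower (15.1% of genes) and 1 of 6 venous genes was higher and 1 lower (5.16% of genes higher). Without lymphatic EC-like cells the E18.5 counts were 13 of 17 arterial genes lower, against 10.3% of all genes, and 5 of 8 venous genes higher, against 3.51%. The E18.5 medians were then -1.26 for the arterial and 1.71 for the venous list. In the same selection at E15.5, 16 of 18 arterial genes were lower, against 8.66% of all genes. Of 9 venous genes, 4 were higher and 2 lower, against 3.13% of all genes higher.

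Named genes show the size of these differences at E18.5, in thinned counts. Aplnr, the apelin receptor of veins and capillaries, was 176 CPM (133 to 229) in Nr2f2-only and 27.4 in Efnb2-only ECs, and Nrp2, a co-receptor of venous and lymphatic ECs, 497 (422 to 581) and 22.0. Without lymphatic EC-like cells Nrp2 was 81.9 (49.3 to 128) and 17.3. Gja4, an arterial gap junction gene, was 324 and 1347 CPM. Of the members, Ephb4 was 123 (87.2 to 168) and 90.2 (83.8 to 96.9), overlapping, Efna1 was 107 (74.0 to 149) and 272, and Epha4 was 25.2 (10.9 to 49.6) and 58.8. At E15.5 Ephb4 was 92.6 (67.5 to 124) and 47.6 (41.9 to 53.8), and Nrg1 was 14.4 (5.79 to 29.7) and 0.560, beside 3.14 (0.0796 to 17.5) and 0.852 at E18.5, which overlapped. Efna1 was thus lower in Nr2f2-only ECs, as in lymphatic EC-like cells, while Ephb4 differed beyond its counting intervals at E15.5 and not at E18.5. Without lymphatic EC-like cells the E15.5 intervals overlapped as well, at 75.2 (52.1 to 105) and 47.6 (42.0 to 53.9). Mesenchymal transcripts moved with the same split: Tcf21, a fibroblast gene, was 28.3 (12.9 to 53.7) and 2.68 CPM at E18.5 and 76.3 and 3.47 at P8, and Col1a1 was 53.5 and 10.7 at E18.5. Other-class markers were held by 4.18% of E18.5 ECs with Nr2f2 and 0.629% of those without, and by 6.96% and 0.579% at P8. Without such ECs the E18.5 counts were 13 of 17 arterial genes lower (9.61% of all genes) and 5 of 8 venous genes higher (4.02%), and Ephb4 was 123 (86.8 to 170) and 90.3.

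**Figure D4:**
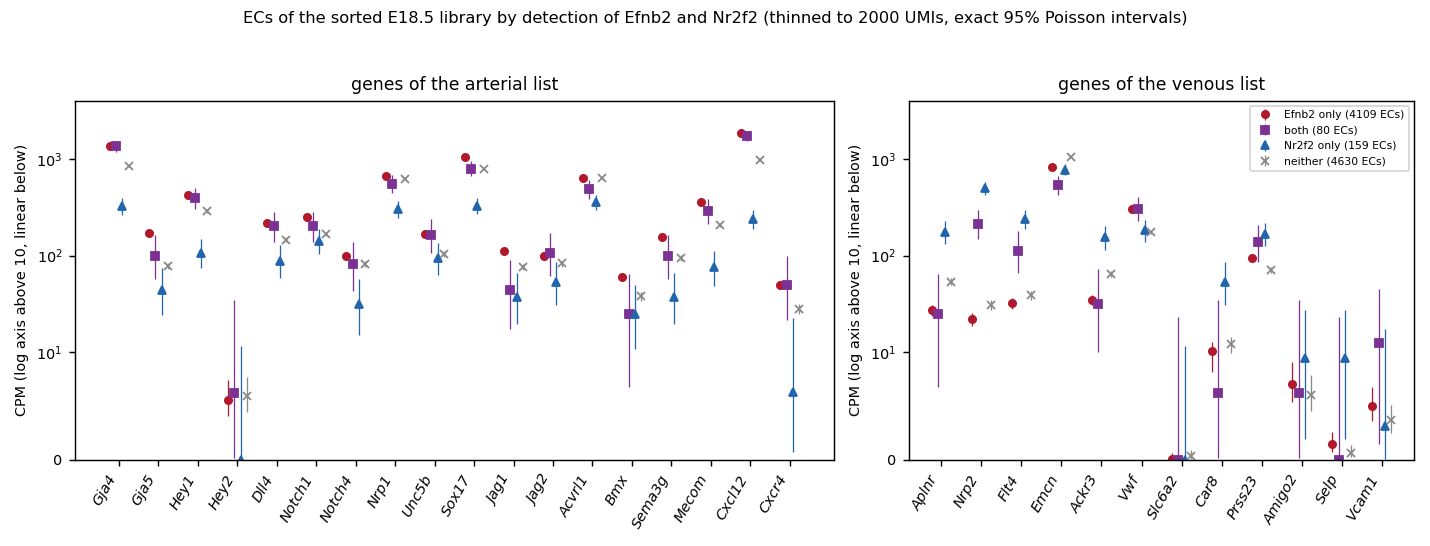
Level of arterial and venous list genes at E18.5 in ECs with only Efnb2 found (4109 cells), both genes (80), only Nr2f2 (159) and neither (4630), from thinned counts. Arterial genes such as Gja4 (1347 and 324 CPM) are higher in the Efnb2-only ECs, and Aplnr (27.4 and 176) and Nrp2 (22.0 and 497) in the Nr2f2-only ECs.

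Across 29 named populations of 50 or more cells, the members were compared by correlation. The Pearson correlation of log2(CPM + 1), given as a description since populations share libraries, was 0.845 for Efnb2 with Epha4, 0.671 for Efnb2 with Efna1, -0.590 for Efnb2 with Nr2f2, -0.811 for Epha4 with Nr2f2, 0.542 for Ephb4 with Nr2f2 and 0.0857 for Efnb2 with Ephb4. Of 8689 genes, those most like Efnb2 over these populations were Tnks1bp1 (0.916), AW011738 (0.909), Slc3a2 (0.907), S100a1 (0.894) and St6galnac3 (0.891). Those most like Ephb4 were Sntb2 (0.869), Angpt2 (0.854), Gna12 (0.841), Prelp (0.838) and Tigd2 (0.835), and those most like Nr2f2 were Nrp2 (0.902), D030007L05Rik (0.888), Gnas (0.854), Rab3il1 (0.852) and Ipo11 (0.837).

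Between both whole E18.5 lungs, 0 of the 6 members past the minimum differed by 2-fold in ECs, where 0.297% of 8748 genes were higher and 0.514% lower in the library labelled null. Efnb2 was 205 CPM (201 to 210) in the library labelled null and 182 (176 to 188) in the library labelled control, Ephb4 71.3 (68.6 to 74.2) and 86.1 (82.1 to 90.3), and Nr2f2 49.4 (47.1 to 51.8) and 55.6 (52.4 to 59.0). The log2 ratios of Efnb2, Efnb1, Efna1, Ephb4, Epha4 and Nr2f2 were 0.17, -0.12, 0.16, -0.27, 0.13 and -0.17, and the genotype behind each label is in doubt as given above. After the authors' SoupX adjustment for free RNA the ratios were -0.19, -0.34, -0.16, -0.60, -0.11 and 0.52, so that the sign turned for Efnb2, Efna1, Epha4 and Nr2f2, and only Efnb1 and Ephb4, of these 6, were lower in the library labelled null in both. Of 17 arterial genes, 1 differed, Cxcl12 itself (6.71), and of 9 venous genes 0.

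The Nr2f2 level in whole-lung ECs moved with mesenchymal, epithelial or immune transcripts. Of the thinned ECs with Nr2f2, 52.5% held at least 2 UMIs of other-class markers in the library labelled null and 46.6% in the library labelled control, against 12.7% and 13.5% of ECs without it. Without such ECs the level was 24.4 and 33.7 CPM, and with SoupX-adjusted values 31.7 and 22.0. Monocyte-like cells stood at 19.8 and 20.9 CPM in the counts and at 0 after adjustment. The aCap-like, gCap-like, maEC-like and tip EC-like levels of 6.90 to 18.6 CPM were at or below the monocyte-like level. Of the named EC populations, aCap-like cells were lowest in both libraries, at 8.57 and 6.90 CPM. How much of each level was free RNA was not tested. ECs in clusters without a name were highest, at 96.0 (90.7 to 102) in the library labelled null and 93.0 (86.9 to 99.4) in the library labelled control. They held 112 of the 179 and 111 of the 146 thinned ECs with Nr2f2. Of the named populations, the systemic-type capillary-like cells stood above the monocyte-like level, at 54.6 (43.9 to 67.1) and 44.9 (35.4 to 56.3). So did proliferating-like cells in the library labelled control, at 33.2 (26.7 to 40.8). Those in the library labelled null, at 24.8 (18.7 to 32.2), overlapped it. The Nr2f2-only ECs of the whole lungs were again lower in arterial genes (14 of 17 and 12 of 16, where 9.09% and 9.08% of all genes were lower) and higher in venous genes (3 of 7 and 6 of 8, where 6.65% and 7.4% were higher). The median log2 ratio of the venous list was 0.15 in the library labelled null and 1.41 in the library labelled control. Over all genes it was -0.04 and -0.01. Without the ECs that held other-class markers, the Nr2f2-only ECs numbered 50 and 62. In them 12 of 17 and 10 of 16 arterial genes were lower, where 17.6% and 17.2% of all genes were, and 3 of 7 and 7 of 8 venous genes were higher, where 8.31% and 7.57% were. With ECs that held other-class markers included, Tcf21 was 472 and 393 CPM in Nr2f2-only and 31.3 and 41.3 in Efnb2-only ECs.

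By class in the whole lungs, 4 members, Efnb2, Efna1, Ephb4 and Nrg1, were highest in ECs of the 4 classes endothelial, epithelial, mesenchymal and immune, in both libraries. Values are given for the library labelled null and then control. Efnb2 was 205 and 182 CPM in ECs against 18.7 and 17.2 in mesenchymal, 14.1 and 19.4 in epithelial and 4.47 and 4.61 in immune cells. Outside ECs its highest named levels included myofibroblast-like cells, at 42.5 and 24.7, and smooth muscle-like cells, at 32.2 and 39.4. Ephb4 was 21.2 and 22.9 in mesenchymal and 12.8 and 15.4 in epithelial cells. Efna1 was shared with the epithelium, at 86.3 and 94.5 CPM in AT1-like cells, the flat cells of gas exchange, and was almost absent from mesenchyme, at 4.06 and 3.93.

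The other members were at least as high outside the endothelium. Nr2f2 was 298 and 317 CPM in mesenchymal cells, with 362 and 381 in alveolar fibroblast-like and 289 and 334 in pericyte-like cells, and 119 and 137 in macrophage-like cells, which kept 110 and 118 after SoupX adjustment. Nr2f1 was 21.1 and 29.4 in mesenchymal cells against 5.59 and 8.87 in ECs. Efnb1 was 73.5 and 81.5 in mesenchymal cells beside 66.6 and 72.5 in ECs, with 91.2 and 108 in alveolar fibroblast-like cells. Epha4 split the mesenchyme: it was 84.2 and 69.6 in myofibroblast-like and 63.1 and 99.1 in smooth muscle-like cells, against 2.86 and 2.99 in alveolar fibroblast-like cells. Nr2f2 stood at 260 and 275 in the same myofibroblast-like and 174 and 165 in the same smooth muscle-like cells, below its alveolar fibroblast-like levels.

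**Figure D5:**
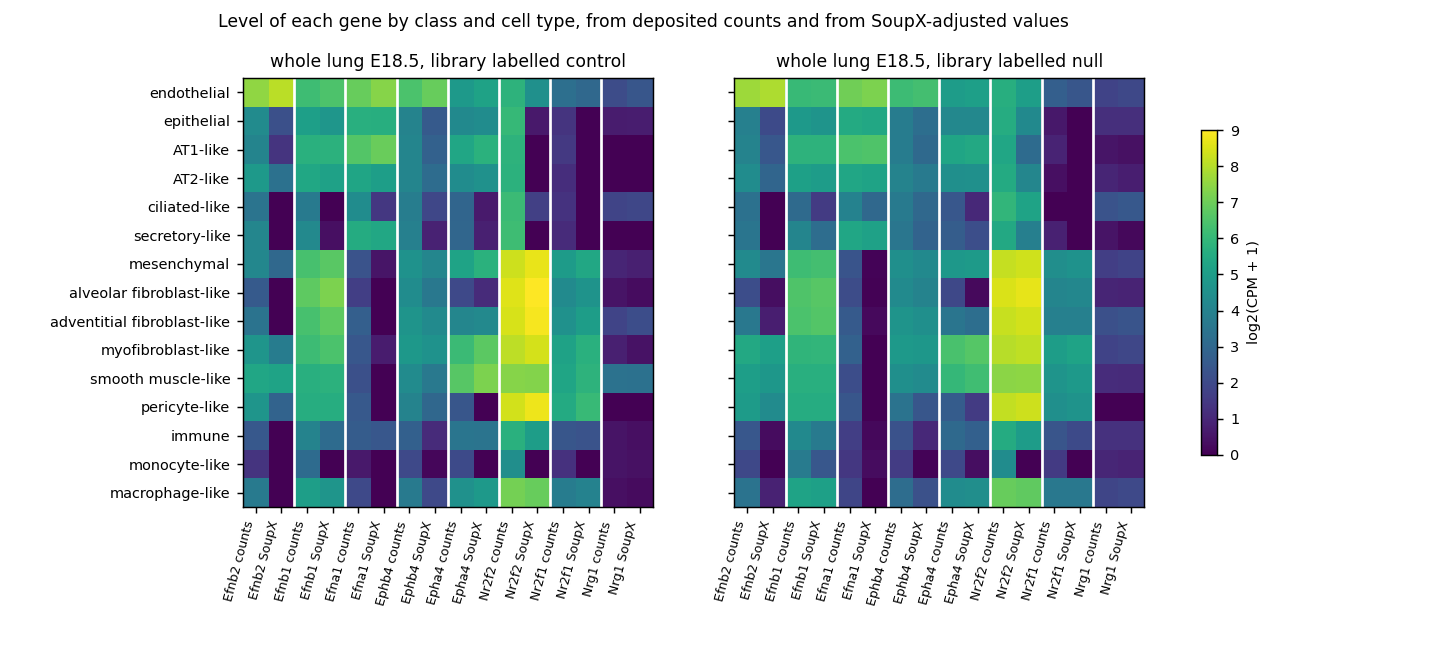
Heat map of log2(CPM + 1) of the 8 members in the classes and named cell types of both whole E18.5 lungs, from counts and from SoupX-adjusted values. Efnb2 and Ephb4 peak in endothelial cells (205 and 71.3 CPM in the library labelled null), and Nr2f2 in mesenchymal cells (298 CPM), with its monocyte-like level of 19.8 CPM at 0 after adjustment.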

How the data were processed

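Lung cells were captured on the 10x Genomics platform. The submitters' processing notes name Cell Ranger 3.1, Seurat 3.2.2 and genome build mm10, and per the file headers the matrices came from Cell Ranger 3.1.0 (both whole lungs, E13.5) or 3.0.2 (the remaining 3). The authors deposited raw UMI counts for all 6 libraries, and for both whole lungs also expected counts that SoupX had adjusted for free RNA. SoupX values were used only as an alternative.

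Kept cells had at least 700 genes, and mitochondrial transcripts made up 0.5 to 10% of their UMIs. CPM are summed UMIs of the ECs over all their UMIs, with exact Poisson intervals, and shares have exact Clopper-Pearson intervals after thinning each cell to 2000 UMIs. Ratios are log2 of CPM + 0.5. ECs were clustered in each library without the 8 genes (scanpy 1.11.5, leidenalg 0.10.2). A cluster was named from fixed markers if its score was highest, at least 3 markers reached 10 CPM, 1 was among its top 10 genes and under 50% of its cells were doublets. Doublets were called by Scrublet at its threshold, or at the expected rate at E18.5 and P8, where the threshold was not used, and were kept. The calls took 14.8%, 4.34%, 7.76% and 7.53% of the sorted ECs from the youngest to the oldest age, 10.2% in the library labelled null and 11.0% in the library labelled control.

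Named genes were the 8 members, other Eph and ephrin genes of at least 10 CPM, up to 4 genes of the arterial and venous lists with the largest ratio per comparison, and the 5 genes most like Efnb2, Ephb4 and Nr2f2 among genes of at least 20 CPM in a population. Hey2, as the 1 arterial gene that fell from E15.5 to E18.5, and the members of the venous list were named as well. Genes set out for the Efnb2-only and Nr2f2-only ECs, and the leading genes of the unnamed clusters, were chosen after their values were seen. Members, lists and rules were chosen with earlier results of these data known. The ratio, correlation and co-detection steps were tested on simulated data, and thinned cells were checked for their depth. The intervals were not tested in this way. Python 3.11.15, numpy 2.4.6, scipy 1.17.1 and pandas 2.3.3 were used. Gene places are from GENCODE M21. Upstream windows were available for 7 of 8 members, all but Nrg1.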

Additional observations from a re-analysis of the deposited data

How the results depend on the processing

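No paired analysis was possible because each condition was 1 library, and for the same reason no replicate could be left out. The number of member ratios of at least 2-fold between neighbouring ages was 6, and it was 3 with called doublets left out and 2 with 5 CPM added in place of 0.5. Under the other settings it was 4 to 6. In these alternatives no ratio that had been called changed sign. Leaving mitochondrial, ribosomal and haemoglobin genes out of the total moved the median log2 ratio over all genes from E15.5 to E18.5 from 0.18 to 0.06, and the genes past 2-fold from 8.93% higher and 4.80% lower to 7.66% and 6.75%. Efnb2 had the highest level in an arterial population in 5 of 5 libraries at each resolution and with doublets left out. The share of ECs with Nr2f2 was lower among those with Efnb2 in 6 of 6 libraries, in 5 of 6 without thinning, and in 5 of 5 without the E13.5 library, a comparison chosen after seeing the data, as were those limited to endothelial clusters, without lymphatic EC-like cells and, for the gene lists of Nr2f2-only ECs, without ECs holding other-class markers, and the minimum set over all ECs for those lists. SoupX adjustment raised the genes past 2-fold between the whole lungs to 3.55% higher and 2.10% lower. At 210 ECs the E13.5 values carry the widest intervals, and its Nrg1 level rests on 3 UMIs.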
